A study of Mus musculus with 3 samples.

Results

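The small leucine-rich proteoglycans are secreted proteins built from leucine-rich repeats, many of which carry chondroitin, dermatan, or keratan sulfate chains. Levels of 10 genes of this family, *Aspn*, *Ogn*, *Omd*, *Dcn*, *Lum*, *Fmod*, *Bgn*, *Prelp*, *Epyc*, and *Chad*, were followed in cells of the mouse fracture callus. The genes were taken by name from the 32285 genes counted, and all 10 were found. Femurs of C57BL/6 mice had been cut at mid-shaft and held with an intramedullary steel pin, with buprenorphine given against pain. No other treatment of the mice behind these libraries is stated. The study used both sexes and grouped them together. The callus was taken at day 7, day 10, or day 14, with 1 library of single cells per day. Live cells without the surface markers CD45, CD31, and TER119 had been sorted, so that most blood and endothelial cells should have been removed. The number of animals behind each library and their age were not given in the sources used here.

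These proteins bind collagen fibrils and set how thick and how regularly spaced the fibrils become. Several of them, decorin, biglycan, fibromodulin, and asporin among them, also bind TGF-β and so hold growth factor in the matrix. A healing fracture passes through fibrous tissue, then cartilage, and then bone, and each of these has its own collagen fibrils for the family to bind.

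The genes fall into a few tight neighborhoods in the genome. In GRCm38, with gene borders from GENCODE M21, *Aspn* (chr13:49544443-49567565), *Omd* (chr13:49582462-49592822), and *Ogn* (chr13:49608046-49624501) follow each other on the plus strand, with 14.9 kb and 15.2 kb between them. *Dcn* (chr10:97479609-97518143), *Lum* (chr10:97565128-97572703), and *Epyc* (chr10:97644068-97682454) lie in another row, while *Prelp* (chr1:133910304-133921414) and *Fmod* (chr1:134037254-134048277) lie close to each other on chromosome 1. *Bgn* (chrX:73483602-73495933) and *Chad* (chr11:94565047-94569127) stand alone. *Cenpp*, a centromere gene on the opposite strand, spans *Aspn*, *Omd*, and *Ogn*, and whether the counting used strand is not stated. *Cenpp* itself reached at most 17.5 CPM in any group at day 10 and day 14 (CPM, UMIs of a gene per 1000000 UMIs of the group). *Prelp*, *Epyc*, and *Chad* also overlap an opposite-strand gene.

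The 3 neighbors on chromosome 13 did not share a leading group of cells, nor did *Epyc* and *Chad*, and the 150 bases before each of these 5 RefSeq start sites (GRCm38.p6, read along the gene) are shown for that reason. RefSeq promoter sequences matched 8 of the 10 genes. Capitals mark TATAAA or TGTGGT on either strand, the letters of a TATA box and of a RUNX motif.
Aspn, plus strand, chr13:49544293-49544442: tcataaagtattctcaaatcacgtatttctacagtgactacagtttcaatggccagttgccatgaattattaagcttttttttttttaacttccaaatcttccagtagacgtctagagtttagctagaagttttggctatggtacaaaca
Omd, plus strand, chr13:49582312-49582461: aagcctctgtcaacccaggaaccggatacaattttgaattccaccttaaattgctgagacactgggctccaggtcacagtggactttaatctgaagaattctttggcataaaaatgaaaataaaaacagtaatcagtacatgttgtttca
Ogn, plus strand, chr13:49607865-49608014: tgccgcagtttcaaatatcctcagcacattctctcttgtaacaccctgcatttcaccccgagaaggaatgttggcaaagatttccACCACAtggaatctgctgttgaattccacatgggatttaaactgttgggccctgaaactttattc
Epyc, plus strand, chr10:97643918-97644067: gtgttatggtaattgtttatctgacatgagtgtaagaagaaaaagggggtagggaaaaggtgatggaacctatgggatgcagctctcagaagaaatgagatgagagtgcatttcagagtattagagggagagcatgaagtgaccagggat
Chad, plus strand, chr11:94564897-94565046: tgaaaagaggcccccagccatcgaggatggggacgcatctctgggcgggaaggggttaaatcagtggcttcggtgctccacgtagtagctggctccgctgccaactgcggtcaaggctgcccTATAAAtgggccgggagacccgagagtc
The letters TATAAA were found once, 28 bases before the start of *Chad*, and 7.57% of all 32851 promoter windows of this length hold them. The letters TGTGGT were found once, on the opposite strand in the *Ogn* window, and 8.40% of all windows hold them. ACAAAG and ACAATG, letters of SOX motifs, were in none of the 8 windows and in 15.5% of all. A match is a description of letters and not a binding site.

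Cells were sorted into groups by 5 marker genes. *Postn* encodes periostin, a matrix protein of periosteal and other fibroblastic cells, *Cnmd* encodes chondromodulin of cartilage, *Col10a1* encodes the collagen of hypertrophic cartilage, *Ifitm5* marks osteoblasts, and *Rgs5* marks pericytes. A cell was called high with at least 3 UMIs of the marker and at least 2000 CPM for *Postn* or *Cnmd*, 5000 for *Col10a1*, 500 for *Ifitm5*, or 1000 for *Rgs5*, and each group held cells high for exactly 1 marker. Cells with any UMI of *Ptprc*, which encodes CD45, were set apart although CD45- cells had been sorted. They were 6570 of 7017 cells within the study's limits in the first library, with neutrophil genes at 301309 CPM, but only 6 and 173 cells in the other libraries. That left 447, 6587, and 9680 cells in order of day. Postn-high cells numbered 37, 1337, and 2077 in the same order, Cnmd-high cells 33, 2371, and 1299, Col10a1-high cells 7, 524, and 1470, Ifitm5-high cells 5, 113, and 352, and Rgs5-high cells 0, 51, and 188. Another 2009 cells at day 10 and 4123 at day 14 were high for none of the markers. The edges of the groups were not gaps: for *Postn* at day 10, 271 cells lay under the threshold but above 0.8 of it, whereas for *Rgs5* there were 3 such cells. Groups of under 20 cells entered no ratio, so of the marker groups at day 7 only the Postn-high and Cnmd-high cells are described.

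Many listed marker genes were highest in the group of their name, but not all. Rgs5-high cells held *Notch3*, a pericyte receptor, at 429 and 386 CPM at day 10 and day 14, and the other 4 groups at most 4.31. *Bglap*, the osteocalcin gene of mature osteoblasts, was at 8249 and 4752 CPM in Ifitm5-high cells. A minority of these cells held most of it. The 16 and 56 of them with at least 2000 CPM of *Bglap* held 57988 and 34169 CPM. The other 97 and 296 held 103 and 185 CPM. *Col2a1* stood at 45762 and 40316 CPM in Cnmd-high cells. *Thbs2*, a fibroblastic gene, was at 1336 and 1593 CPM in Postn-high cells and at most 242 in the other 4 groups. Exceptions included *Cspg4*, a pericyte gene, at 366 and 312 CPM in Cnmd-high but 329 and 209 in Rgs5-high cells. The fibroblastic gene *Prrx1* was at 408 and 444 CPM in Rgs5-high but 249 and 216 in Postn-high cells. *Pdgfra*, also fibroblastic, was at 84.0 and 75.5 CPM in Ifitm5-high but 55.5 and 55.6 in Postn-high cells. Postn-high cells also held tenocyte genes, 742 and 834 CPM summed over *Tnmd*, *Scx*, *Mkx*, and *Thbs4*, and none of the 4 was at 0. Genes of neutrophils summed to 1880.2 to 2139 CPM in the Cnmd-high and Postn-high groups of day 7, against at most 230 CPM in the 5 groups at day 10 and day 14, and their part in the day 7 values was not tested. In the day 7 cells with *Ptprc* UMIs the 10 genes stood at 0.616 (*Epyc*) to 81.1 CPM (*Bgn*), and in the 173 such cells of day 14 at 6.64 (*Epyc*) to 1277 CPM (*Bgn*). Barcodes shared between libraries were 29 to 42 per pair, and 18 at most among cells without *Ptprc* UMIs. Median depth in the 5 groups at day 10 and day 14 was 9130.5 to 20876 UMIs per cell. With 1 library per day there is no replicate, and no test between groups or days was possible: all intervals are 95% intervals that cover counting error only.

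At day 10 and day 14 each of the 10 genes was highest in Postn-high, Cnmd-high, or Col10a1-high cells, by margins that differed widely. A gene was called led by a kind of cell when that kind was highest at both day 10 and day 14 and at least 2-fold above the highest group of any other kind on both days, cartilage being the higher of Cnmd-high and Col10a1-high cells. Cartilage led 4 of the 10 genes, *Omd*, *Prelp*, *Epyc*, and *Chad*, of which *Omd* and *Chad* fell short of 2-fold when bone cells were chosen by *Bglap*. Among all 3557 genes with at least 50 CPM in 1 group on both days, cartilage led 5.76%. Postn-high cells led 1 gene, *Aspn*, against 2.25% of all genes. Another 4, *Ogn*, *Lum*, *Fmod*, and *Bgn*, were highest in Postn-high cells on both days without reaching 2-fold on both, and *Dcn* changed its leading group between the days. Ifitm5-high cells led 0 of the 10, with 1.88% of all genes, and Rgs5-high cells led 0, with 6.35%. With shares this small, 0 of 10 does not set the family apart from other genes.

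Taken day by day, the picture for cartilage was steady and that for fibroblastic cells was not. At day 10 cartilage was at least 2-fold above the other kinds for 4 genes, with 7.18% of all genes, and at day 14 for the same 4 (*Omd*, *Prelp*, *Epyc*, and *Chad*), with 7.07%. Postn-high cells were so for 1 gene at day 10, *Aspn*, with 2.27% of all genes, and for 3 at day 14, *Aspn*, *Ogn*, and *Lum*, with 3.23%. *Lum* was under 2-fold there after thinning (1.996-fold), without mitochondrial and the top 20 genes (1.94-fold), and with bone cells chosen by *Bglap* (1.69-fold). For bone cells the count was 0 on both days, with 2.01% and 2.11% of all genes, and for pericytes 0, with 8.73% and 7.58%. At day 7, where only Postn-high and Cnmd-high cells could be compared, Postn-high cells were at least 2-fold higher for *Aspn* and *Ogn*, 2 of 10 with 14.4% of all genes, and Cnmd-high cells for *Prelp*, *Epyc*, and *Chad*, 3 of 10 with 7.49%.

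**Figure D1:**
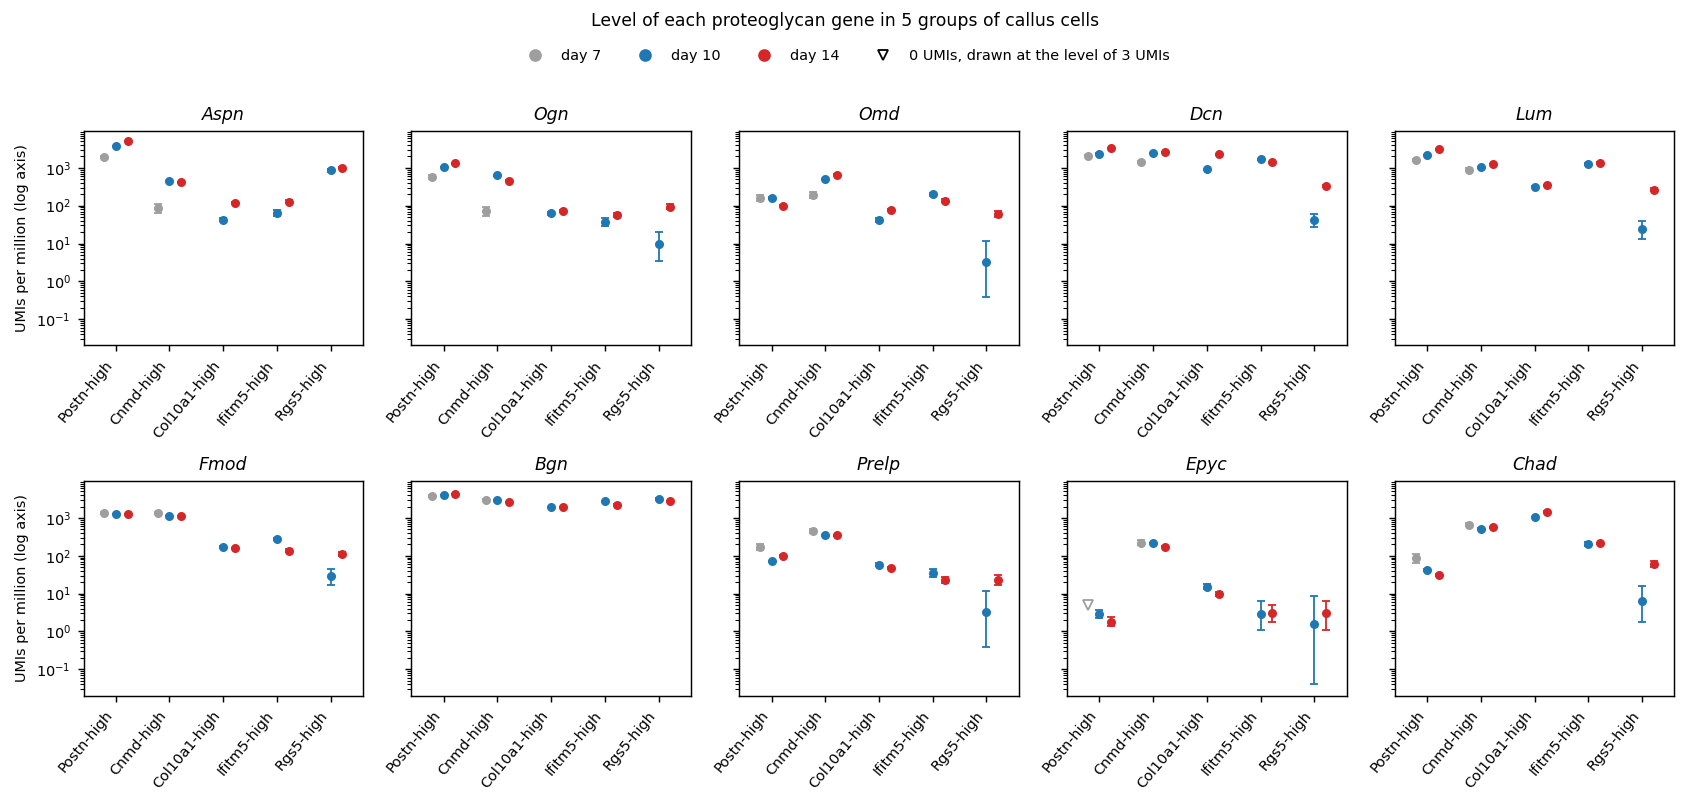
Level of each gene in CPM (log axis) in cells high for 1 of 5 markers, with 1 point per library and 95% Poisson intervals; groups of under 20 cells are left out, and an open triangle marks 0 UMIs, drawn at the level of 3 UMIs. *Aspn* is highest in Postn-high cells, *Epyc* stands out in Cnmd-high cells, and *Chad* is highest in Col10a1-high cells.

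*Aspn*, encoding asporin, a collagen-binding member that is not a classical proteoglycan, was the most fibroblastic of the 10. Its level in Postn-high cells was 1907 CPM (95% interval 1799 to 2020) at day 7, 3760.2 (3734 to 3786) at day 10, and 5183 (5157 to 5208) at day 14. The next group was the Rgs5-high cells at 865 CPM at day 10 and 1016 at day 14, so that Postn-high cells were 4.35-fold (3.998 to 4.74) and 5.10-fold (4.88 to 5.33) higher. Without Rgs5-high cells, the lead over the next kind was 8.33-fold and 12.6-fold. Cnmd-high cells held 451 and 411 CPM, and Col10a1-high and Ifitm5-high cells held 42.4 to 128 CPM. The order of the groups was thus Postn-high, Rgs5-high, Cnmd-high, and then bone and hypertrophic cells, on both days, and at day 14 the intervals of Col10a1-high and Ifitm5-high cells overlapped. The middle cell gave the same picture. The median over Postn-high cells was 3104 CPM at day 10 and 4533 at day 14, and over Col10a1-high and Ifitm5-high cells it was 0. *Aspn* and *Ogn* are genes by which the study described its *Postn* cluster from these same libraries, so their place here is not independent evidence.

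*Ogn* encodes osteoglycin, also called mimecan, which takes part in collagen fibril assembly. Its level in Postn-high cells was 570.2 CPM at day 7, 1056 at day 10, and 1307 at day 14. Cnmd-high cells held 72.3, 629, and 459 CPM. The lead of the fibroblastic cells was 1.68-fold (1.65 to 1.71) at day 10 and 2.85-fold (2.79 to 2.91) at day 14. With groups set by the top 10% of cells for each marker, it was 1.10-fold at day 10. *Ogn* in the other groups of day 10 and day 14 was far lower, between 9.54 and 93.3 CPM. At day 10, and less so at day 14, it was thus a gene of fibroblastic and Cnmd-high cells together. At day 7 Postn-high cells were 7.89-fold (5.87 to 10.8) above Cnmd-high cells. Unlike *Aspn*, *Ogn* was nearly missing from Rgs5-high cells at day 10, at 9.54 CPM from 6 UMIs.

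*Dcn* and *Bgn* encode decorin and biglycan, the closely related members with dermatan or chondroitin sulfate chains. Both were high nearly everywhere. *Dcn* stood at 2373 CPM in Postn-high cells and 2412 in Cnmd-high cells at day 10, a ratio of 1.02 (1.01 to 1.03) in favor of cartilage. At day 14 the values were 3337 and 2659 CPM, 1.26-fold (1.24 to 1.27) in favor of Postn-high cells. Col10a1-high cells held *Dcn* at 911 and 2264 CPM. *Dcn* was also at 1682 and 1405 CPM in Ifitm5-high cells, and Rgs5-high cells were lowest, at 41.3 and 328 CPM. The median Ifitm5-high cell held less, 768 and 880 CPM. The 16 and 56 Ifitm5-high cells with at least 2000 CPM of *Bglap* held *Dcn* at 5354 and 2829 CPM, and the other 97 and 296 at 1080 and 1184. Of the 10 genes *Dcn* had no leading kind of cell.

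*Bgn* had the narrowest range of the family. Postn-high cells held 4053 CPM at day 10 and 4345 at day 14, Rgs5-high cells 3149.8 and 2759.6, Cnmd-high cells 2886 and 2597, Ifitm5-high cells 2733 and 2241, and Col10a1-high cells 1934 and 1984. The lead over the next kind was 1.29-fold (1.23 to 1.35) and 1.57-fold (1.53 to 1.62). *Bgn* was detected in 93.1% to 99.5% of cells of these groups after each cell was thinned to 2000 UMIs, against 4.202% of the cells with *Ptprc* UMIs at day 7, 3 of 5 at day 10, and 50.3% (85 of 169) at day 14. The median depth of those cells before thinning was 5045 UMIs at day 7 and 9210 at day 14.

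*Lum* and *Fmod* encode lumican and fibromodulin, keratan sulfate members that bind to the same region of collagen I fibrils. In Postn-high cells *Lum* was at 1620.05, 2211, and 3060.4 CPM, in order of day. Its next group by summed UMIs was bone: Ifitm5-high cells held 1266 and 1357 CPM at day 10 and day 14. The lead was 1.75-fold (1.68 to 1.82) and 2.25-fold (2.20 to 2.31). Cnmd-high cells held 1028 and 1287 CPM and Col10a1-high cells 314 and 343. By the median cell, Ifitm5-high cells were above Cnmd-high cells at day 10, with 964 and 863 CPM. At day 14 they were below, with 827 and 1026 CPM. By summed UMIs *Lum* was thus the member that, with *Dcn* and *Bgn*, was kept at a high level in Ifitm5-high cells.

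*Fmod* behaved otherwise. It was nearly even between Postn-high and Cnmd-high cells, with 1274 against 1128 CPM at day 10 and 1275 against 1094 at day 14, ratios of 1.13 (1.11 to 1.15) and 1.16 (1.15 to 1.18). At day 7 the values were 1368 and 1373 CPM, a ratio of 1.00 whose interval (0.914 to 1.10) spans 1. In Col10a1-high and Ifitm5-high cells *Fmod* was at 138 to 277 CPM. At day 10 and day 14 *Fmod* was highest in Postn-high cells, and with groups set by the top 10% of cells for each marker another group was highest at day 10 (log2 ratio -0.05).

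**Figure D2:**
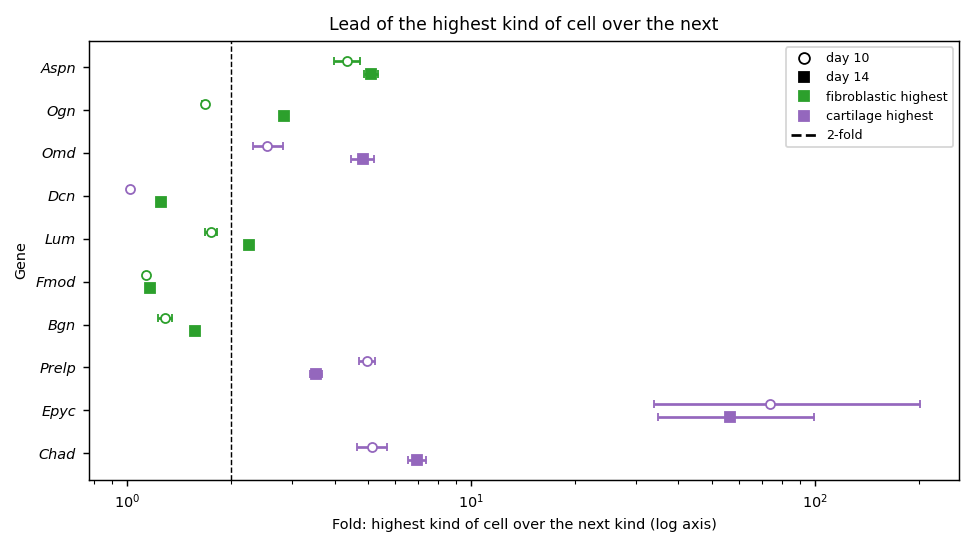
Fold of the highest kind of cell over the next kind for each gene (log axis), at day 10 (open circles) and day 14 (filled squares), with 95% intervals and a dashed line at 2-fold. *Aspn* is the only gene led by fibroblastic cells (green) past the line on both days, and *Omd*, *Prelp*, *Epyc*, and *Chad* lie past it for cartilage cells (purple).

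*Prelp*, *Omd*, *Epyc*, and *Chad* were the cartilage genes of the family. *Prelp* encodes an arginine- and proline-rich member that can bind heparan sulfate and link basement membranes to collagen. Its level in Cnmd-high cells was 449 CPM at day 7, 353 at day 10, and 347 at day 14. Postn-high cells, the next kind, held 173, 70.9, and 98.4 CPM. The lead was 2.60-fold (2.08 to 3.27), 4.98-fold (4.72 to 5.25), and 3.53-fold (3.39 to 3.68). The remaining groups were below 60 CPM on both later days.

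*Omd* encodes osteomodulin, or osteoadherin, an acidic keratan sulfate member known from mineralizing bone. Here it was highest in Cnmd-high cells, at 189.9 CPM at day 7, 511 at day 10, and 660.0 at day 14. Ifitm5-high cells came next at 200.1 and 137 CPM at day 10 and day 14, and the cartilage lead was 2.55-fold (2.31 to 2.82) and 4.83-fold (4.48 to 5.21). Postn-high cells held 159.8 and 100.1 CPM and Col10a1-high cells 41.8 and 77.1. At day 7 Cnmd-high and Postn-high cells differed by 1.19-fold (0.908 to 1.56), which is within counting error. *Omd* thus parted from its neighbors *Aspn* and *Ogn*, which were highest in Postn-high cells.

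*Epyc* encodes epiphycan, a dermatan sulfate member named after epiphyseal cartilage, and it had the sharpest boundary of the 10. Cnmd-high cells held 221 CPM at day 7, 219 at day 10, and 171 at day 14. Ifitm5-high cells, the next kind, held 2.96 CPM from 6 UMIs at day 10 and 3.02 from 16 UMIs at day 14, a difference of 73.8-fold (33.9 to 201) and 56.6-fold (34.8 to 99.0). The size of that lead depended on how cells were grouped, reaching down to 29.4-fold at day 10, when cells high for several markers were assigned to 1 group, and to 17.5-fold at day 14, with bone cells chosen by *Bglap*. In Postn-high cells *Epyc* gave 0 UMIs at day 7, where 3 UMIs would be 4.94 CPM, and 2.94 and 1.83 CPM at day 10 and day 14. Even so it was not in every Cnmd-high cell: after thinning, 24.4% of them had a UMI at day 10 and 19.2% at day 14, against 0.526% and 0.388% of Postn-high cells. The cells with *Ptprc* UMIs gave 0.0485% at day 7, 0 of 5 cells at day 10, and 1.18% (2 of 169, 0.144 to 4.21) at day 14. The last interval holds the Postn-high share of day 14, which was thus not shown to stand above these cells. They also held *Rgs5* at 528 and *Ifitm5* at 62.6 CPM at day 14, so they are not a measure of background.

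*Chad* encodes chondroadherin, a member outside the classical proteoglycans that binds cells through an integrin and binds collagen II. It was the only one of the 10 to peak in Col10a1-high cells, with 1052 CPM (1031 to 1073) at day 10 and 1468 (1453 to 1483) at day 14. Cnmd-high cells held 524 and 561 CPM. The next kind of cell was Ifitm5-high at 205 and 211 CPM, 5.13-fold (4.65 to 5.67) and 6.95-fold (6.54 to 7.38) lower, and Postn-high cells held 42.9 and 31.3 CPM. After thinning, 67.8% and 75.6% of Col10a1-high cells had a *Chad* UMI, against 45.4% and 40.7% of Cnmd-high cells, and 10.7% of the day 14 cells with *Ptprc* UMIs. With groups set by the top 10% of cells for each marker, the lead over the next kind was 2.74-fold and 4.07-fold.

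Which bone marker was used mattered for 2 of these calls. When *Bglap* at 2000 CPM took the place of *Ifitm5*, an alternative chosen after seeing the data, 35 bone cells at day 10 and 100 at day 14 were found, and cartilage led 2 genes, *Prelp* and *Epyc*, in place of 4. In these Bglap-high cells *Chad* was at 920 CPM (845 to 1000.3) and 1037 (978 to 1098), so that Col10a1-high cells were 1.14-fold (1.04 to 1.24) and 1.42-fold (1.34 to 1.501) higher. *Omd* was at 337 and 279 CPM, and Cnmd-high cells were 1.51-fold (1.32 to 1.75) and 2.37-fold (2.12 to 2.65) higher. The Bglap-high cells were themselves mixed. Those that were not Ifitm5-high, 19 and 44 cells, held *Chad* at 1539 and 1578 CPM, with *Col2a1* at 29415 and 12419 CPM, whereas the 16 and 56 that were also Ifitm5-high held *Chad* at 232 and 721 CPM, with *Col2a1* at 5990 and 5283. The part of these cartilage transcripts in the *Chad* and *Omd* values was not tested. *Dcn* was highest in Bglap-high cells at day 10, at 3520.3 CPM, but not at day 14, at 2806 CPM. *Prelp* was at 123 and 44.4 CPM in Bglap-high cells, and its cartilage lead at day 10 was 2.87-fold. *Lum* was at 1706 and 1801 CPM, and the Postn-high lead at day 14 was 1.69-fold. No gene of the family was led by Bglap-high cells on both days, and the share of all genes led by them was not counted.

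Within cartilage, 9 of the 10 genes were lower in Col10a1-high than in Cnmd-high cells on both days, and *Chad* was higher. The widest gaps at day 10 were those of *Epyc*, 219 against 15.4 CPM or 14.3-fold, and of *Omd*, 511 against 41.8 CPM or 12.2-fold. *Bgn* was the flattest at day 10, 1.49-fold lower in Col10a1-high cells, and *Dcn* at day 14, 1.17-fold lower. *Chad* was 2.01-fold (1.96 to 2.05) and 2.62-fold (2.57 to 2.67) higher. Cells high for both *Cnmd* and *Col10a1*, 78 at day 10 and 53 at day 14, held *Omd* at 318 and 538 CPM and *Epyc* at 156 and 92.0 CPM. The same cells held *Aspn* at 64.2 and 73.9 CPM and *Ogn* at 114 and 77.8 CPM, well under the Cnmd-high level. *Chad* was at 1117 and 2077 CPM in them.

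**Figure D3:**
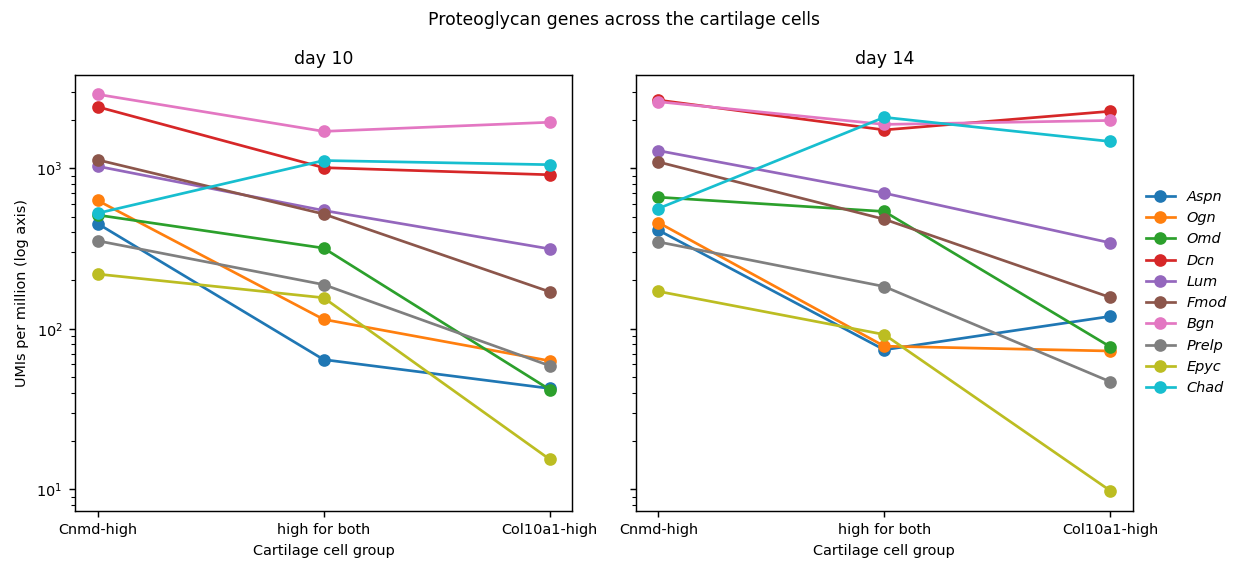
Level of the 10 genes in CPM (log axis) in cells high for *Cnmd*, for both *Cnmd* and *Col10a1*, and for *Col10a1*, at day 10 (left) and day 14 (right), 1 library each. *Chad* is higher in Col10a1-high than in Cnmd-high cells, and the other 9 genes are lower.

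Between the day 10 and day 14 libraries, several genes shifted in Col10a1-high cells, and of these *Dcn* kept its size best across settings. *Aspn* was at 42.4 and then 119 CPM, a ratio of 2.81 (2.53 to 3.13), *Dcn* at 911 and then 2264 CPM, a ratio of 2.49 (2.43 to 2.54), and *Omd* at 41.8 and then 77.1 CPM, a ratio of 1.85 (1.65 to 2.07). Those are 3 of the 9 family genes with at least 50 CPM there, and 1.01% of all genes were at least 1.5-fold higher at day 14 in that group. None of the 9 was as much lower, with 5.21% of all genes. The *Dcn* difference was seen in the middle cell as well, with medians of 592 and 1572 CPM. Its ratio was 2.21 to 2.63 under the other settings. For *Aspn* the median was 0 on both days, and 5.29% and then 12.5% of the thinned cells had a UMI. Of the day 14 cells with *Ptprc* UMIs 21.9% had one, but these are not a measure of background, since they also held group markers. With the top 10% of cells for each marker the *Aspn* ratio was 1.54, and the *Omd* ratio turned to 0.559. The *Omd* ratio was also under 1.5 with doubled thresholds (1.28), with cells high for several markers assigned to 1 group (1.29), and with doubly positive cartilage cells added (1.19).

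The *Aspn* difference was larger in cells near the *Col10a1* threshold than in those well above it. Among all cells ranked by *Col10a1*, those from 1 to 2 times the threshold, 131 of 607 high cells at day 10 and 449 of 1565 at day 14, held *Aspn* at 69.1 and 319 CPM. Those over 2 times the threshold held it at 49.6 and 82.1 CPM. *Omd* over 2 times the threshold was at 60.2 and 65.1 CPM, and *Dcn* at 917 and 2085. Unlike the Col10a1-high group, these bins include cells high for other markers as well. Cells high for both *Postn* and *Col10a1* numbered 3 at day 10 and 35 at day 14, and their part in these values was not tested. Markers of other cells also moved in Col10a1-high cells between the libraries, with neutrophil genes at 1.32 and 229.7 CPM, *Bglap* at 69.8 and 185.7 CPM, and *Ptn*, a fibroblastic gene, at 9.54 and 28.4 CPM. Without cells in which neutrophil and macrophage genes passed 1% of UMIs, the ratios were 2.74 for *Aspn*, 2.49 for *Dcn*, and 1.84 for *Omd*. The part of *Bglap* and *Ptn* RNA in these ratios was not tested.

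In Postn-high cells *Aspn*, *Dcn*, *Lum*, and *Prelp* were 1.38- to 1.41-fold higher at day 14, 0 of 8 genes passed 1.5-fold upward (1.69% of all genes did), and *Omd* alone of the 8 passed it downward at a ratio of 0.627 (0.596 to 0.658), with 2.1% of all genes. That ratio was 0.771 without the upper limit on genes per cell, 0.773 without any limits on cells, and 0.728 with halved thresholds. In Cnmd-high cells no gene of the 10 passed 1.5-fold in either direction, with 1.55% of all genes higher and 3.3% lower. *Fmod* in Ifitm5-high cells had a ratio of 0.497 (0.444 to 0.555), the 1 of 8 lower there (3.84% of all genes), and *Aspn* one of 1.98 (1.64 to 2.40), the 1 of 8 higher (1.22% of all genes). Neither call held throughout: the *Fmod* ratio was 0.672 with the top 10% of cells and 0.780 in Bglap-high cells, and the *Aspn* ratio 1.26 without the upper limit on genes and 1.27 without any limits. Library, animals, and day cannot be told apart.

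**Figure D4:**
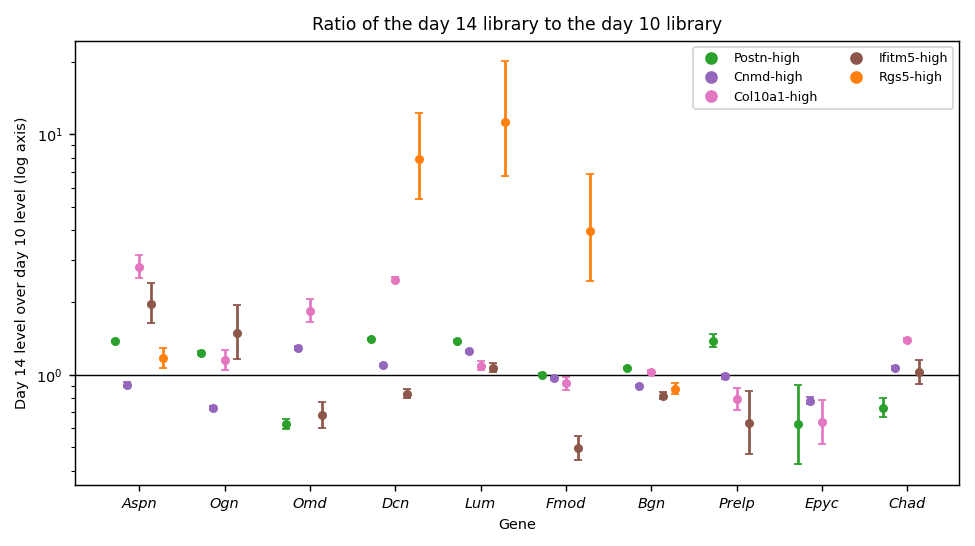
Ratio of the day 14 to the day 10 level for each gene (log axis) in the 5 groups, with 95% counting intervals; ratios resting on under 10 UMIs on either day are left out. Ratios in Postn-high and Cnmd-high cells lie between 0.622 and 1.41, *Aspn*, *Omd*, and *Dcn* lie above 1 in Col10a1-high cells (*Omd* lay below 1 with the top 10% of cells), and *Dcn*, *Lum*, and *Fmod* lie above 1 in Rgs5-high cells.

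Pericytes held a family profile of their own. In Rgs5-high cells *Bgn* made up 76.2% and 58.4% of the UMIs of the 10 genes at day 10 and day 14, and *Aspn* 20.9% and 21.5%. After thinning, *Aspn* was found in 79.6% and 77.4% of the Rgs5-high cells, and in 21.9% of the day 14 cells with *Ptprc* UMIs. The other 8 genes were at 1.59 to 41.3 CPM at day 10 and at 3.01 to 328 CPM at day 14. At day 14, 6 of the 8 genes with at least 50 CPM were at least 1.5-fold higher than at day 10, as were 5.44% of all genes. Among them were *Dcn* at 7.93-fold (5.36 to 12.2) and *Lum* at 11.2-fold (6.74 to 20.2). All 6 rested on few UMIs in the 51 cells of day 10: *Omd* 2, *Chad* 4, *Ogn* 6, *Lum* 15, *Fmod* 18, and *Dcn* 26. None of the 8 was 1.5-fold lower, with 7.16% of all genes. Under the other settings the log2 ratio ranged from 1.56 to 3.48 for *Dcn* and from 2.43 to 3.50 for *Lum*, and that of *Chad*, 1 of the 6, from -0.33 to 3.24. The median over Rgs5-high cells was 0 CPM for *Dcn* and *Lum* on both days. *Col2a1* moved with them in these cells, from 399 to 1669 CPM, and the bone sialoprotein gene *Ibsp* from 122 to 1434 CPM, and their part in the change was not tested. *Higd1b*, a pericyte gene, stood at 456 and 413 CPM.

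Cells were also ranked by *Postn* alone, without the other markers. The bins over 2000 CPM hold the Postn-high cells again, so a like order there is not separate evidence. From cells with no *Postn* UMI to those over 4000 CPM, *Aspn* went from 126 to 4283 CPM at day 10 and from 122 to 6028 at day 14, with each step higher than the one before. *Lum* went from 491 to 2442 CPM and from 533 to 3087. *Fmod* differed little among the bins over 500 CPM of *Postn*, at 1264 to 1292 CPM at day 10 and 1111 to 1289.8 at day 14, and was at 499.9 and 257 CPM in cells without *Postn*. *Omd*, *Prelp*, and *Epyc* were highest in cells with some *Postn* under 500 CPM, at 421, 298, and 159.9 CPM at day 10, and lower on both sides. *Chad* was lower at each step, going from 899 to 25.2 CPM at day 10 and from 1203 to 28.1 at day 14.

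**Figure D5:**
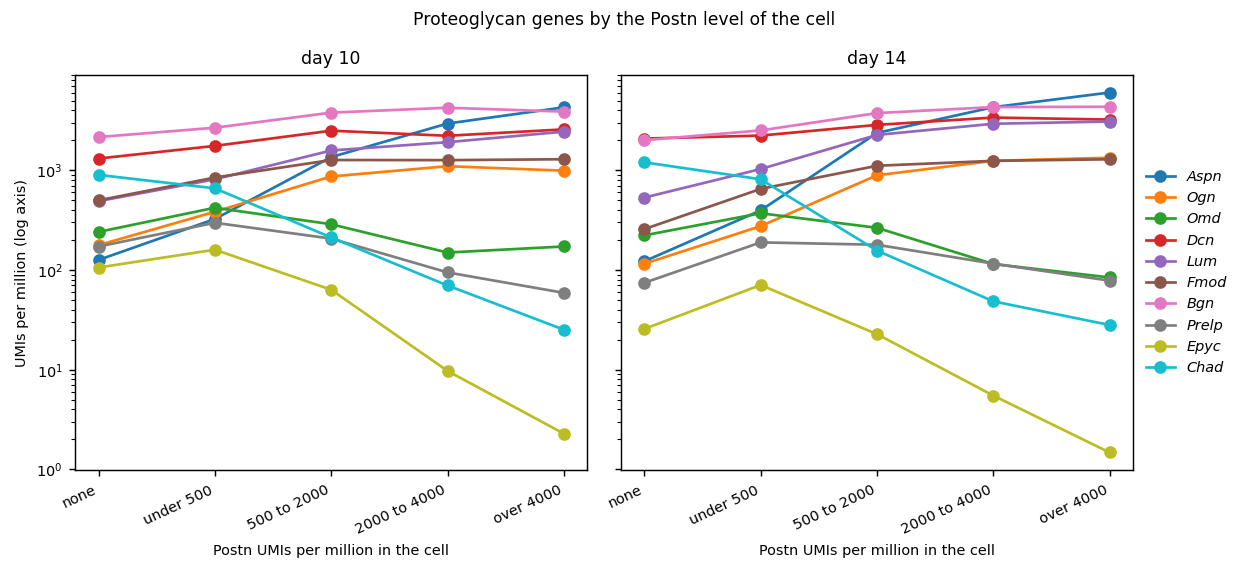
Level of the 10 genes in CPM (log axis) in all cells without *Ptprc* UMIs, binned by the *Postn* level of the cell, at day 10 (left) and day 14 (right), 1 library each. *Aspn* is higher in each bin than in the one before, *Chad* is lower in each, and *Omd*, *Prelp*, and *Epyc* peak in the second bin.

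Summed over the 10 genes, the family took 15004 and 18738 CPM in Postn-high cells at day 10 and day 14. Cnmd-high cells gave 10142 and 10246, Ifitm5-high cells 6505 and 5699, Col10a1-high cells 4602 and 6542, and Rgs5-high cells 4132 and 4724. UMIs of these 3′ libraries count molecules and not fragments, so that gene length does not enter the shares. *Bgn* gave 27.0% and 23.2% of the Postn-high sum and *Aspn* 25.1% and 27.7%. In Col10a1-high cells *Chad* took 22.9% and 22.4%, against 5.17% and 5.47% in Cnmd-high cells. *Dcn* took 19.8% of the Col10a1-high sum at day 10 and 34.6% at day 14. Not all of this RNA came from the 5 groups: cells high for no marker gave 7.44% (*Epyc*) to 30.8% (*Bgn*) of the UMIs of each gene at day 10, and 11.6% (*Epyc*) to 43.4% (*Lum*) at day 14.

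Neighbors in the genome were not always found in the same cells. Over all thinned cells without *Ptprc* UMIs, *Aspn* and *Ogn* were seen together in 34.1% at day 10 and 37.6% at day 14, where the product of their shares is 23.6% and 25.9%. *Aspn* and *Omd* were seen together in 15.3% and 11.8%, close to the products of 15.1% and 12.6%. *Lum* and *Dcn* were seen together in 62.3% and 66.9%, with products of 57.1% and 63.1%. Such shares mix the cell groups. Within Cnmd-high cells at day 10, *Aspn* and *Ogn* were together in 29.3% against a product of 20.9%, and *Aspn* and *Omd* in 20.4% against 19.3%. For *Aspn* and *Omd* the other groups differed, with values given for day 10 and then day 14. Col10a1-high cells had 0.588% against 0.260% and 2.56% against 1.11%, and Ifitm5-high cells 5.36% against 2.68% and 3.14% against 2.35%. Postn-high cells had 18.3% against 18.0% and 11.0% against 11.3%, and Rgs5-high cells 0% against 0% and 3.76% against 4.58%. Cells of 1 library are not replicates, and these figures are descriptions.

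Other genes around the family were counted from lists. Of 8 other small leucine-rich proteoglycans and relatives, 3 had at least 50 CPM in a group on both days, and 1, *Chadl*, the chondroadherin-like gene, was led by cartilage, at 215 and 231 CPM in Cnmd-high cells against 33.1 and 22.1 in Ifitm5-high cells. *Ecm2*, next to *Aspn* on chromosome 13, was highest in Postn-high cells at 125 and 142 CPM. Of 8 collagens, Postn-high cells led 3, *Col3a1*, *Col5a1*, and *Col12a1*, cartilage led *Col2a1*, and Ifitm5-high cells led *Col1a1*, where 2.25%, 5.76%, and 1.88% of all genes were led by these kinds. *Col3a1* was at 14900 and 15254 CPM in Postn-high cells, and 6446 and 4920.5 CPM in Rgs5-high cells. Of 5 matrix enzymes tested, Postn-high cells led *Mmp2*, which encodes gelatinase A, and cartilage led *Mmp13*, a collagenase gene, at 5529 and 3918 CPM in Col10a1-high cells. *Bmp1*, whose protease trims the propeptide of biglycan, was highest in Ifitm5-high cells at 331 and 375 CPM without being led by them.

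Among the enzymes that build the sugar chains, 3 of 8 tested were led by cartilage cells and none by another kind, with 5.76% of all genes led by cartilage, 2.25% by Postn-high, 1.88% by Ifitm5-high, and 6.35% by Rgs5-high cells. Of 6 chondroitin and dermatan sulfate enzymes tested out of 13, cartilage led 2. These were *Xylt1*, whose xylosyltransferase starts the chain, at 278 and 243 CPM in Cnmd-high cells against 78.5 and 78.9 in Postn-high cells, and *Chst11*, a chondroitin sulfotransferase gene, at 215 and 155 CPM. *Chst1*, a keratan sulfate sulfotransferase gene, was led by Col10a1-high cells at 82.6 and 78.3 CPM, as 1 of 2 tested out of 6. *B4galt1* was highest in Postn-high cells, at 144 and 165 CPM.

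Over 12 points, the single-marker groups of at least 20 cells in the 3 libraries, each gene was set against others by the Pearson correlation of log2(CPM + 10). In all, 2323 genes reached 100 CPM in a group, and the 10 family genes and the 5 group markers were left out of the ranking. The points share libraries and total counts, so that these values only describe likeness. *Aspn* was most like *Igfbp4* (r = 0.969), *Ogn* like *Igf1* (0.957), *Fmod* like *C1qtnf3* (0.966), *Bgn* like *Col3a1* (0.974), and *Lum* like *Serf1* (0.939). *Prelp* was most like *Fgfrl1* (0.986), *Epyc* like *Ucma* (0.977), *Chad* like *Frzb* (0.978), *Omd* like *Spats2l* (0.916), and *Dcn* like *Olfml3* (0.910). Within the family, *Dcn* and *Lum* were close (0.904), *Aspn* and *Bgn* less so (0.849), and *Aspn* and *Chad* ran opposite (-0.753).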

How the data were processed

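Sorted callus cells were profiled by 10x droplet sequencing, 1 library for each of day 7, day 10, and day 14. The authors aligned reads to mm10 and collapsed UMIs with Cell Ranger, and deposited the UMI counts of each cell as whole numbers that were not normalized. The version is 3.0 in the submitters' processing notes and 3.1.0 in the file header, and the study's methods name a later one. Whether strand was used is not given in the sources used here. Columns of names and barcodes were used as labels. Cells were kept with 500 to 5000 genes, at most 10% mitochondrial and 5% hemoglobin UMIs, and 0 *Ptprc* UMIs. No doublet caller was run, and cells high for more than 1 marker were set apart. UMIs were summed per group and expressed as CPM, with exact Poisson intervals for levels, exact binomial intervals for ratios, and Clopper-Pearson intervals for shares of cells thinned to 2000 UMIs (seed 1). Genes at or above 50 CPM in a group entered the background. Python 3.11.15, numpy 2.4.6, scipy 1.17.1, pandas 2.3.3, and matplotlib 3.10.9 were used. The ratio step was run on Poisson counts drawn with the totals of Postn-high and Cnmd-high cells at day 10 and folds set in advance. Of the intervals for 2533 genes, 95.1% held the set fold. Such counts hold no spread between cells or libraries, so this checks the calculation only. The genes, groups, and lists were chosen with earlier results of these data known. The text names the 10 genes, the markers, list genes, and for each gene those most like it in pattern, among genes reaching 100 CPM; *Cenpp* and the Bglap-high cells were chosen after their values were seen.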

Additional observations from a re-analysis of the deposited data

Results flagged for a closer look

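*Omd*, *Fmod*, and *Prelp* had ratios of day 14 to day 10 that pointed in opposite directions in different groups, and these differences were not tested because each day is 1 library. For *Omd* the ratio was 1.85 in Col10a1-high cells and 19.1 in Rgs5-high cells, the latter from 2 UMIs at day 10, against 0.627 in Postn-high cells. For *Fmod* it was 3.96 in Rgs5-high and 0.497 in Ifitm5-high cells. For *Prelp* it was 7.42 in Rgs5-high cells, again from 2 UMIs at day 10, and 0.634 in Ifitm5-high cells.

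Cells with *Ptprc* UMIs, which entered no comparison, also held family transcripts at the later days. *Aspn* was at 1683 CPM in the 6 such cells of day 10 and at 710.02 CPM in the 173 of day 14, and *Dcn* at 1006 and 949 CPM, while in the 6570 such cells of day 7 they were at 14.1 and 30.0 CPM. A minority of these cells held *Aspn*: 16.7% of the 6 had a UMI of it and 42.2% of the 173, and the median was 0 CPM on both days. For *Dcn* the median was 266 and 68.3 CPM. Genes of neutrophils summed to 63910 CPM in the 6 cells of day 10 and 181237 CPM in the 173 cells of day 14, and their part in these values was not tested.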

How the results depend on the processing

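No paired analysis was possible because each day is 1 library and no result comes from a test. The numbers of genes led by each kind of cell were the same under 10 other settings of limits, thresholds, scaling, and averaging, and under 3 of 4 more added after seeing the data. With bone cells chosen by *Bglap*, the number led by cartilage was 2. Called ratios between days reversed in Col10a1-high and Rgs5-high cells. By the top 10% of cells, the log2 ratio was -0.84 for *Omd* in Col10a1-high cells and -1.09 for *Epyc* in Rgs5-high cells. In Rgs5-high cells, doubled thresholds gave -0.56 for *Prelp*, -1.37 for *Epyc*, and -0.33 for *Chad*. For *Epyc* there, the log2 ratio was -0.30 without the upper limit on genes, -0.27 without any limits on cells, and -1.45 when cells high for several markers were assigned to 1. Among the other values of single genes, 611 stayed inside the counting interval of the reported value, 345 moved outside it, and the 8 above, which had passed the fold, reversed. Of the 611 and 345, 43 ratios without a call changed sign, among them *Dcn* between cartilage and other cells at day 10 (to -0.55, bone cells by *Bglap*) and between fibroblastic and other cells at day 14 (to -0.02, doubled thresholds) and *Fmod* at day 10 (to -0.05, top 10%). *Dcn* was highest in Postn-high cells on both days with halved thresholds or with doubly positive cartilage cells added, and in Cnmd-high cells with doubled thresholds. No library could be left out because each day has 1. Depth limits the Rgs5-high cells of day 10 most, with 51 cells and 629245 UMIs.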
